A study of Mus musculus with 4 samples.

Results

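Splicing factor genes were taken as the protein-coding genes whose symbol starts with Snrp, Sf3a, Sf3b, Srsf, Prpf, Hnrnp or U2af, leaving out Snrpn, an imprinted gene. The rule, which uses names alone, gave 68 of the 21883 genes that the GRCm38.p6 annotation lists as protein-coding: 11 Snrp, 9 Sf3, 3 U2af, 13 Prpf, 11 Srsf and 21 Hnrnp genes. Of these, 67 lie on autosomes and 1, Hnrnph2, lies on X. Snrnp70, which encodes another spliceosomal protein, does not match the naming rule and is not among them.

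Introns are removed by the spliceosome, which assembles on each pre-mRNA from small nuclear ribonucleoproteins and many further proteins. The Snrp genes encode the Sm core and the U1- and U2-specific proteins of these particles, the Sf3 genes encode the U2 subcomplexes that hold the branch point, and the U2af genes encode the factor that reads the end of the intron. The Prpf genes encode mostly tri-snRNP and catalytic-stage proteins, while Srsf and Hnrnp proteins bind exons and introns and steer the choice of splice sites. Splicing in meiotic male germ cells is known to be unusually varied.

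The data were ATAC-seq peak lists, in which a transposase marks accessible DNA, from pachytene spermatocytes isolated from mouse testis. In the BMH-21 group, cells were kept for 12 h with BMH-21 at 2.5 µM, a compound that blocks RNA polymerase I, the enzyme of pre-rRNA synthesis. The mock group received DMSO, the solvent, alone. Each group had 2 libraries, named BMH-21 1 and BMH-21 2, and mock 1 and mock 2. The submitters call them biological replicates, but the labels do not say whether they came from separate animals, so the spread between them may be partly technical. About 10000 cells went into each library. Strain and age of the mice were not given in the labels. The comparison asks how accessibility changes when RNA polymerase I is inhibited. With 2 libraries a group an exact permutation test over the 4 libraries cannot give a p below 0.33, so groups are described here by whether their libraries overlap. "Apart" below means that both BMH-21 libraries lay on the same side of both mock libraries.

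The lists held 51234 and 55459 peaks in the BMH-21 libraries, against 109230 and 117905 peaks in the mock libraries. The genome-wide background, which scales with the reads given to the peak caller, was 4.46 and 4.11 fragments in the BMH-21 libraries and 4.54 and 4.31 fragments in the mock libraries. This estimate of depth overlapped between the groups, and read totals were not given. Of 15 marker genes of pachytene spermatocytes, 14 had a gene-end peak in both BMH-21 libraries and 14 in both mock libraries. Fewer markers of other testis cells had such a peak in both BMH-21 libraries than in both mock libraries: 3 against 6 of 8 Sertoli genes, 2 against 5 of 8 Leydig and peritubular genes, 1 against 6 of 8 leukocyte genes, 1 against 3 of 4 endothelial genes, 2 against 5 of 7 spermatogonial genes, and 0 against 2 of 5 round spermatid genes. The Sertoli gene Rhox5 went the other way, with such a peak in both BMH-21 libraries and neither mock library. Over all 21883 protein-coding genes the numbers were 12974 against 15036. The part of these cells in the results below was not tested, and a change in the mix of cells and a change in accessibility per cell cannot be told apart in bulk libraries.

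Promoters are printed for a few genes with large changes in the within-library rank of their peak, in either direction, and for the gene whose gene-end peak both BMH-21 lists lacked. Windows from 250 bases before to 50 bases after the annotated transcription start (RefSeq, GRCm38.p6) were at hand for 59 of the 68 genes. Sf3b3 encodes a large SF3b subunit, and its window is chr8:110846754-110847053 on the minus strand. Srsf1 encodes an SR protein that binds exonic enhancers, with its window at chr11:88047123-88047422 on the plus strand. These genes had the 2 largest falls in rank after BMH-21. Prpf6, a tri-snRNP scaffold gene (chr2:181601069-181601368, plus strand), and Sf3b6, a gene for the SF3b protein at the branch point (chr12:4817358-4817657, plus strand), were among the 5 largest rises. Hnrnpf encodes a protein that binds runs of G, and its window (chr6:117900090-117900389, plus strand) is shown because its gene-end peak was present in mock libraries alone. Each is printed 5′ to 3′ on the strand of the gene, with matches to the searched motifs in capitals.
Sf3b3: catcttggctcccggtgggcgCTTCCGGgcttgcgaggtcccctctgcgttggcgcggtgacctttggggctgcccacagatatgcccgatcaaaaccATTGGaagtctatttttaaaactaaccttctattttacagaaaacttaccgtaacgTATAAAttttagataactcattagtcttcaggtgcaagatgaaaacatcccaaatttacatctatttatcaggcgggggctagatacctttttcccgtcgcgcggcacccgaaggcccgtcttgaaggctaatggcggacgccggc
Srsf1: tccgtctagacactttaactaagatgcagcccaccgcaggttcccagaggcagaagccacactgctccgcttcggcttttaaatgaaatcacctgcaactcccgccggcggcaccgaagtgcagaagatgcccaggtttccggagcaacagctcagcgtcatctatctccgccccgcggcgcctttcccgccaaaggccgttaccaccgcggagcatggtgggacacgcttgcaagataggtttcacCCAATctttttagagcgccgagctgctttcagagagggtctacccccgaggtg
Prpf6: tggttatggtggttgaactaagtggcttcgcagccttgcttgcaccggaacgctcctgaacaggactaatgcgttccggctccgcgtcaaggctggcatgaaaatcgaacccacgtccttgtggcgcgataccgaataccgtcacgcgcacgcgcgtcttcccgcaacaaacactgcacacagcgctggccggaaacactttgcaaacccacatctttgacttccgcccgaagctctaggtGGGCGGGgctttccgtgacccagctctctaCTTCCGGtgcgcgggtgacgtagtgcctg
Sf3b6: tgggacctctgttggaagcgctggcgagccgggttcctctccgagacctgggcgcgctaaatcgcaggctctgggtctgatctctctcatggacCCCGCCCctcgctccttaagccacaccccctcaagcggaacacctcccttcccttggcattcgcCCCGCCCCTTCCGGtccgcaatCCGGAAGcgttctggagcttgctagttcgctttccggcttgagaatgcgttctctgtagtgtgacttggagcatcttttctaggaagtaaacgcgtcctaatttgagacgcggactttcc
Hnrnpf: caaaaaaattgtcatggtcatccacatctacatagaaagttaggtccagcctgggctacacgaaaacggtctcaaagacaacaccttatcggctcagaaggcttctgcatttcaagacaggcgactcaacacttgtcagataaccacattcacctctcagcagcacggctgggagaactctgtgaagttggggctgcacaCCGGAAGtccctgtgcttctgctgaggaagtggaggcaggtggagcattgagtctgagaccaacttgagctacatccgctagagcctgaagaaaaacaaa

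The capitals mark, on either strand, the ETS motif CCGGAAG, the SP motif GGGCGGG, the CCAAT box CCAAT and the TATA box TATAAA. The other motifs searched were the NRF1 core GCGCATGCG, the YY1 core AAGATGGCG, the cAMP response element TGACGTCA and the MYB motif AACNGTT. The ETS motif stood in 19 of the 59 splicing factor windows (32.2%, exact 95% interval 20.6 to 45.6%). It stood in 11.9% of 17491 windows of all protein-coding genes, with 1 window per gene. Of the 9588 genes with any promoter window under a peak in all 4 libraries, 19.3% had it in the searched window. These 9588 are called windows under a peak below, although the peak may lie over another window of the gene. The SP motif stood in 31 windows (52.5%), against 34.0% of all windows and 52.2% of those under a peak in all 4 libraries. The CCAAT box stood in 29 windows (49.2%), against 39.2% and 38.7%, and the TATA box in 7 windows (11.9%), against 13.3% and 5.67%. NRF1, YY1, cAMP response element and MYB motifs stood in 2 windows each (3.39%), against 2.41%, 1.92%, 2.33% and 3.93% of all windows and 4.27%, 3.38%, 3.63% and 3.01% of those under a peak in all 4 libraries. The windows held a median of 25 CpG dinucleotides, against 13 in all windows and 22 in those under a peak in all 4 libraries, and their GC content was 60% at the median, against 56.3% and 62.3%. Matches of different motifs shared bases in 1 of the 59 windows, that of Snrpd3, which is not printed here. These are matches of letters and not measured sites.

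Nearly all splicing factor genes had an accessible gene end with or without BMH-21. A peak within 1 kb of either end of the gene was present in all 4 libraries for 65 of 68 genes (95.6%, exact 95% interval 87.6 to 99.1%), against 57.9% of all protein-coding genes. Both BMH-21 libraries held such a peak at 65 genes and both mock libraries at 66. Of these 66 genes, 1 (1.52%, interval 0.0384 to 8.16%) had no gene-end peak in either BMH-21 library, against 11.5% of all protein-coding genes for which both mock lists had one. The reverse, a peak with BMH-21 that both mock lists lacked, occurred at 0 of 65 genes (interval 0 to 5.52%), against 1.35% of all genes. All 11 Snrp, 9 Sf3, 3 U2af, 13 Prpf and 11 Srsf genes were present in all 4 libraries, as were 18 of 21 Hnrnp genes.

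The 3 remaining genes were Hnrnpf, Hnrnph1 and Hnrnpa1l2-ps2. Hnrnpf had no gene-end peak in either BMH-21 library. In the mock libraries it had a weak peak at its annotated start, with a fold of 4.15 and 3.20 and 23 and 16 fragments at the summit (chr6:117900353-117900954 in mock 1 and chr6:117900351-117900720 in mock 2). The start of this peak overlaps the window printed above. Inside the gene, regions at chr6:117906560-117908252 and chr6:117916731-117917526, which lie over other promoter windows of Hnrnpf, held peaks in all 4 libraries. Both groups therefore held peaks over promoters of Hnrnpf. Hnrnph1, a close relative that also binds runs of G, was missed by the 1 kb limit: its nearest peak began 1580 and 1569 bp inside the gene in the BMH-21 libraries and 1579 and 1605 bp inside it in the mock libraries. That region, chr11:50376826-50378610, was present in all 4 libraries and lay over the promoter windows of Hnrnph1. Hnrnpa1l2-ps2 is listed as protein-coding although its symbol names a pseudogene, and no peak lay within 10 kb of it in any library. Just inside the limit lay the peaks of Hnrnpul1 (942 bp), Hnrnpu (798 bp) and Srsf1 (693 bp).

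Counted by promoter windows, 58 of 59 genes lay under a peak in all 4 libraries (98.3%, interval 90.9 to 99.96%), against 54.8% of all genes with a window. None of the 58 genes with a window under a peak in both mock libraries lacked it in both BMH-21 libraries (0%, interval 0 to 6.16%), against 9.96% of all such genes. The strongest gene-end peak lay over the gene's own window in all 4 libraries for 52 genes. At 23 genes it lay over the window of a neighbour in at least 1 library. Examples are Cog4 at Sf3b3, Cbx5 at Hnrnpa1, Cbx3 at Hnrnpa2b1 and Cdc26 at Prpf4. Some of the 23, such as U2af2 and Hnrnpll, had no window of their own at hand. Accessibility at these 23 genes cannot be assigned to a single promoter.

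**Figure D1:**
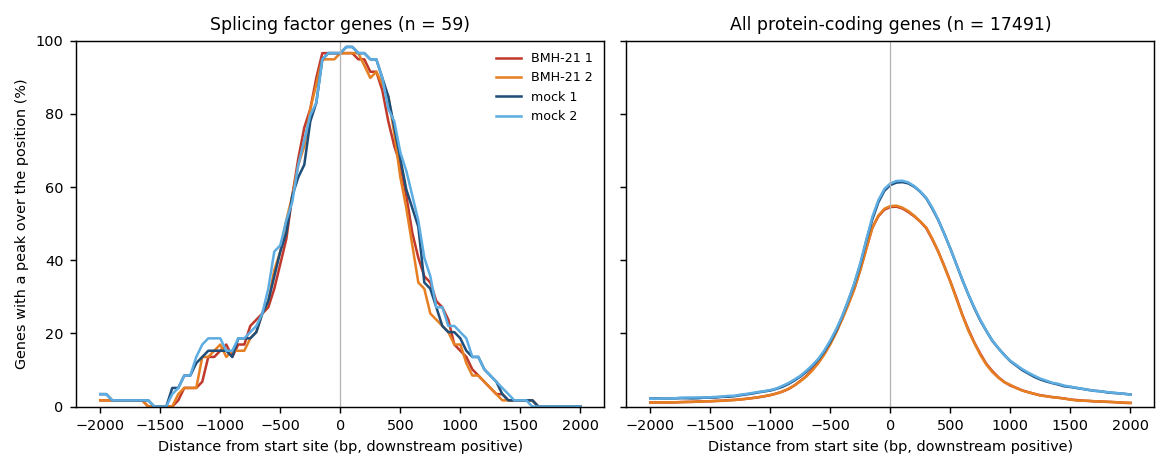
Share of genes (%) with a peak over each position around the annotated start site, by distance from it in bp, for the 59 splicing factor genes with a window (left) and 17491 protein-coding genes (right). At the start itself all 4 lines stood at 96.6% for splicing factor genes, while for all genes they stood at 54.5 and 54.8% in the BMH-21 libraries and 60.6 and 61.0% in the mock libraries.

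The strength of a peak was described by its fold, the ratio of the summit pileup to the local background in the same library, each with a small constant added. Fold is not comparable between libraries, so the strongest gene-end peak of each gene was ranked among the 12675 genes with a gene-end peak in all 4 libraries, as a percentile in which 100 is the strongest. Splicing factor genes stood lower in this order after BMH-21. Their median percentile was 36.5 and 35.7 in the BMH-21 libraries, against 50.0 and 52.1 in the mock libraries. The percentile was lower in BMH-21, with the groups apart, at 45 of 65 genes (69.2%, interval 56.6 to 80.1%), against 42.1% of all 12675 genes. It was higher at 10 genes (15.4%, interval 7.63 to 26.5%), against 39.5% of all. The median change was -17.0 percentile points for splicing factor genes and -0.58 for all.

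The largest falls were at Sf3b3, Srsf1, Srsf7, Sf3a1 and Prpf3. Sf3b3 stood at the percentiles 24.5 and 14.3 in BMH-21 libraries, against 83.2 and 80.6 in mock libraries, with folds of 5.24 and 4.68 against 10.5 and 10.5. Srsf1 stood at 14.8 and 13.5 in BMH-21 libraries, against 61.7 and 68.7 in mock libraries. Both genes fell far outside the spread between libraries of a group, by 62.5 points at Sf3b3 and 51.1 points at Srsf1. Sf3a1, which encodes the largest SF3a subunit, stood at 23.9 and 29.3 in BMH-21 libraries, against 71.7 and 75.5 in mock libraries. Prpf3, a U4/U6 snRNP protein gene, stood at 50.3 and 49.6 in BMH-21 libraries, against 96.0 and 93.2 in mock libraries. Srsf7, an SR protein gene, is a different case, since its strongest peak lay at opposite ends of the gene: at chr17:80206165-80207645 and chr17:80206263-80207675 in BMH-21 libraries and at chr17:80198954-80199659 and chr17:80198920-80199701 in mock libraries. Its percentiles of 26.4 and 18.6 against 71.2 and 68.1 therefore compare different peaks, as they do in 1 library each for Sf3b2 and Prpf4; at the other 62 of 65 genes the strongest peaks shared a base in all 4 libraries.

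The largest rises were at Prpf6, Prpf4, Sf3b5, Prpf38b and Sf3b6. Prpf6 stood at 37.0 and 39.2 in BMH-21 libraries, against 9.36 and 12.1 in mock libraries. Sf3b5, which encodes a small SF3b subunit, stood at 91.9 and 97.9 in BMH-21 libraries, against 68.1 and 77.7 in mock libraries. Sf3b6 stood at 81.2 and 89.8 in BMH-21 libraries, against 60.3 and 69.8 in mock libraries. Prpf38b, a paralogue of a tri-snRNP factor gene, stood at 66.9 and 72.7 against 47.1 and 48.8, and Prpf4 at 77.2 and 72.8 against 44.2 and 60.4. In all of these the groups did not overlap. Hnrnpc, which encodes a protein that coats nascent transcripts, was also higher, at 75.3 and 74.7 in BMH-21 libraries against 65.2 and 63.3 in mock libraries.

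By family, the percentile was lower in BMH-21 at 8 of 11 Snrp, 7 of 9 Sf3, 2 of 3 U2af, 9 of 13 Prpf, 9 of 11 Srsf and 10 of 18 Hnrnp genes. The share over all genes was 42.1%, and no family was tested against it. The median change was -20.3 points for Snrp, -15.6 for Sf3, -5.31 for U2af, -6.78 for Prpf, -21.5 for Srsf and -7.28 for Hnrnp genes. Among Snrp genes, Snrpd1 of the Sm ring stood at 63.7 and 63.6 in BMH-21 libraries, against 95.3 and 95.8 in mock libraries, and Snrpa of the U1 particle at 32.0 and 34.5 against 53.8 and 48.8. Snrpb, another Sm ring gene, stood at 46.3 and 35.7 in BMH-21 libraries against 69.5 and 88.4 in mock libraries, and Sf3b1, whose product clamps the branch point, at 23.6 and 15.6 against 42.4 and 56.2. In each of these 4 genes both BMH-21 libraries were below both mock libraries. Prpf8, the scaffold of the catalytic core, stood at 49.5 and 53.7 in BMH-21 libraries, against 93.8 and 96.0 in mock libraries. U2af1, which reads the AG at the intron end, stood at 67.7 and 64.4 in BMH-21 libraries, against 81.3 and 85.2 in mock libraries, with both BMH-21 libraries below both mock libraries. The strongest peak of its partner U2af2 lay at the far end of the gene, over the promoter window of Epn1 in all 4 libraries, and overlapped between groups, at 44.6 and 55.4 against 48.8 and 52.1. Among abundant RNA-binding proteins, Srsf2 stood at 8.42 and 7.08 in BMH-21 libraries against 31.2 and 27.3 in mock libraries, and Hnrnpu at 7.48 and 8.08 against 37.3 and 30.8. Srsf10, an SR protein gene, stood at 27.9 and 20.7 in BMH-21 libraries against 48.5 and 51.1 in mock libraries. Hnrnpa2b1 stood at 10.6 and 6.15 against 23.4 and 21.5, and Hnrnpk, which binds runs of C, at 13.3 and 11.1 against 28.0 and 24.8. Both had a low percentile in all 4 libraries. Hnrnpa1, a classical repressor of exon inclusion, overlapped between groups, at 23.6 and 24.2 in BMH-21 libraries against 28.5 and 23.0 in mock libraries. On X, Hnrnph2 also overlapped, at 47.9 and 58.9 against 50.0 and 43.6.

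**Figure D2:**
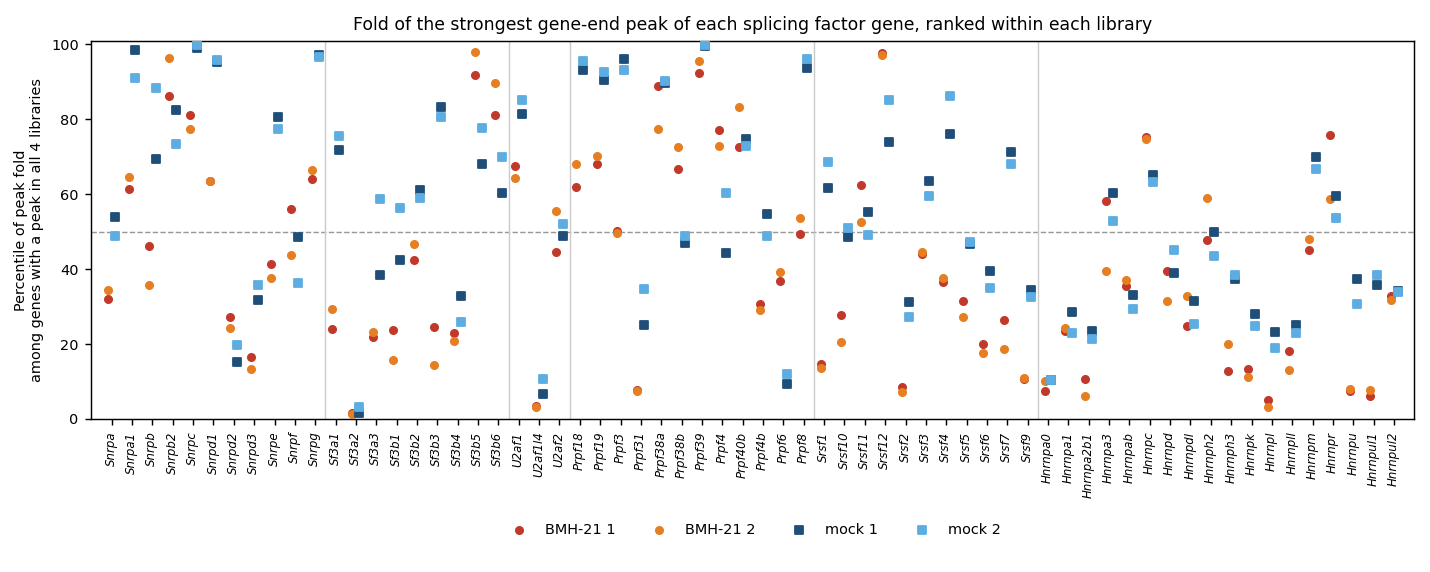
Percentile of the fold of the strongest gene-end peak among 12675 genes (y axis) for 64 of the 65 splicing factor genes with such a peak in all 4 libraries (x axis, by family), with circles for the 2 BMH-21 libraries and squares for the 2 mock libraries. The BMH-21 circles lie below both mock squares at 44 of the genes drawn and above both at 10.

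At the median splicing factor gene the local background was higher with BMH-21, while the summit pileup overlapped between groups. The summit pileup and local background, in fragments, were worked back from each peak's fold and p. At the median splicing factor gene the summit held 131 and 129 fragments in BMH-21 libraries and 127 and 129 in mock libraries. The local background was 20.1 and 20.3 in BMH-21 libraries, against 15.1 and 15.1 in mock libraries. For all 12675 genes the background was 12.9 and 12.6 in BMH-21 libraries and 13.5 and 13.4 in mock libraries, and the summit held 106 and 107 against 116 and 119 fragments.

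The local background was higher in BMH-21, with the groups apart, at 55 of 65 splicing factor genes (84.6%, interval 73.5 to 92.4%), against 44% of all genes. It was lower at 7 (10.8%), against 44.8% of all. The median log2 ratio of BMH-21 to mock was 0.36 for splicing factor genes and -0.01 for all. The summit pileup, divided by the genome-wide background of its library, was higher at 27 genes (41.5%), against 31.3% of all, and lower at 19 (29.2%), against 44% of all, with a median log2 ratio of -0.01 for splicing factor genes and -0.07 for all. When genes were ranked by this relative pileup in place of fold, 34 splicing factor genes (52.3%) ranked higher in BMH-21, against 42.2% of all, and 20 (30.8%) lower, against 39.5% of all. Ranked by −log10 q, 32 (49.2%) were lower, against 41.1% of all, and 23 (35.4%) higher, against 38.8% of all. The lower rank of splicing factor genes was seen by fold, less so by −log10 q, and not by pileup.

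Single genes varied in this. At Sf3b3 the summit held 98 and 81 fragments in BMH-21 libraries and 96 and 98 in mock libraries, while the local background was 17.9 and 16.5 against 8.28 and 8.44. At Prpf8 the summit held 134 and 134 fragments in BMH-21 libraries and 100 and 111 in mock libraries, and the background was 18.7 and 17.3 against 7.32 and 7.48. Srsf1 had a background of 29.0 and 28.3 in BMH-21 libraries against 17.7 and 17.2 in mock libraries, with 135 and 134 against 158 and 169 fragments at the summit. The log2 ratio of the background was above 1 at Sf3b3, Sf3a1, Snrpc, Prpf8, Sf3a3 and Srsf7. At Srsf7 this ratio compares peaks at opposite ends of the gene, so it is not a change at a single place. Prpf6 went the other way: its summit held 150 and 145 fragments in BMH-21 libraries against 114 and 121 in mock libraries, over a background of 23.9 and 21.8 against 27.7 and 26.4. Srsf12, a divergent SR protein gene, had the lowest log2 ratio of the background, -0.69, with 5.28 and 6.26 in BMH-21 libraries against 9.48 and 9.16 in mock libraries.

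By family, the background was higher in BMH-21 at 10 of 11 Snrp, 8 of 9 Sf3, 3 of 3 U2af, 9 of 13 Prpf, 9 of 11 Srsf and 16 of 18 Hnrnp genes, against 44% of all genes. Other gene groups were compared in the same way. Ribosomal protein and proteasome genes were taken by symbol alone: Rpl or Rps and a digit, and Psma to Psmg and a digit. Such rules can also take in genes of other function with matching symbols. The further splicing genes are a mixed list, which includes regulators such as Rbfox, Celf and Mbnl genes. The fold percentile was lower in BMH-21 at 57 of 84 cytoplasmic ribosomal protein genes, 32 of 48 proteasome subunit genes and 57 of 86 further splicing genes, with median changes of -13.1, -13.4 and -14.1 points, beside the 42.1% of all genes given above. The background was higher at 66 of the ribosomal protein genes (78.6%, interval 68.3 to 86.8%) and 65 of the further splicing genes (75.6%, interval 65.1 to 84.2%), beside 44% of all genes. Of the proteasome genes it was higher at 28 (58.3%, interval 43.2 to 72.4%), beside 44% of all genes. It was lower at 13 of them (27.1%), beside 44.8% of all genes. No test of a difference between these groups and the splicing factor genes was made.

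The change was also read within 5 classes of the mock percentile. The mock percentile enters both the classes and the change. A rise in the weakest class and a fall in the strongest are therefore partly built in. The same holds for the background, which enters the fold. Splicing factor genes are thus to be read beside the shared genes of the same class. Across all shared genes, the median change was 9.72 points in the weakest class and -11.3 points in the strongest. For splicing factor genes it was -1.06 in the weakest class (5 genes), -15.6 in the next (18 genes), -6.67 in the middle (15 genes), -16.4 in the fourth (14 genes) and -31.7 in the strongest (13 genes). The shared genes had 4.36, -0.72 and -6.16 points in the 3 middle classes. The median log2 ratio of the background was positive for splicing factor genes in each class, between 0.24 and 0.67, while for all shared genes it ran between -0.55 in the weakest and 0.27 in the strongest class.

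**Figure D3:**
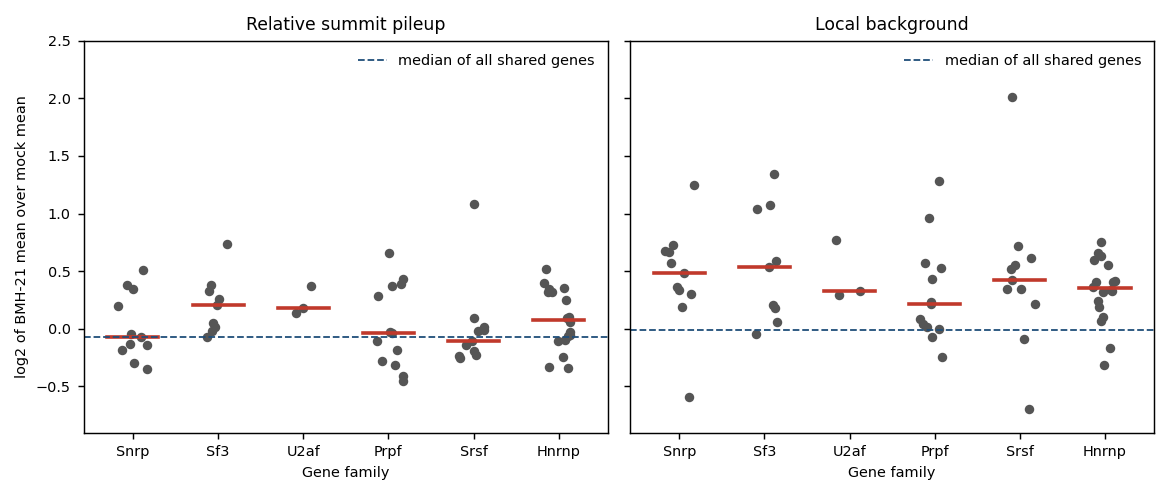
The log2 ratio of the BMH-21 mean to the mock mean for the summit pileup relative to the genome-wide background (left) and for the local background (right), with 1 point per splicing factor gene, red bars at family medians and dashed lines at the median of 12675 genes. The background medians of all 6 families lie above the dashed line at -0.01, while pileup points spread to both sides of the line at -0.07. The highest point in both panels is Srsf7, whose values compare peaks at opposite ends of the gene.

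Peak width overlapped between groups. The median width of the strongest gene-end peak was 1113 and 1076 bp in BMH-21 libraries and 1080 and 1139 bp in mock libraries. For all shared genes it was 920 and 901 bp against 984 and 985 bp. The peak was narrower in BMH-21, with the groups apart, at 29 of 65 splicing factor genes (44.6%), against 46.2% of all, and wider at 11 (16.9%), against 23.8%. The count of narrower peaks was thus near the share of all genes. Among the 5 genes with the largest decrease in width were Hnrnpll, with 1067 and 1098 bp in BMH-21 libraries against 1737 and 1717 bp in mock libraries, and Sf3b4, with 626 and 656 bp against 985 and 1009 bp. The Hnrnpll peak lay over the promoter window of a neighbouring gene in all 4 libraries. Hnrnpll encodes a regulator of alternative exons and Sf3b4 an SF3b subunit. Srsf3, another SR protein gene, had 961 and 1018 bp in BMH-21 libraries, against 1338 and 1336 bp in mock libraries, and Hnrnpd had 1386 and 1363 bp, against 1839 and 1828 bp. Wider peaks were found at Prpf19, the ubiquitin ligase of the Prp19 complex, with 725 and 791 bp in BMH-21 libraries against 576 and 579 bp in mock libraries. Prpf18, a second-step factor gene, had 776 and 1076 bp in BMH-21 libraries against 647 and 678 bp in mock libraries. Snrpd2, at 1225 and 1253 bp against 536 and 1278 bp, overlapped between groups. The widest peaks were at Hnrnpa0, with 2386 and 2405 bp in BMH-21 libraries and 2446 and 2456 bp in mock libraries.

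The summit of the peak over the start site lay further upstream with BMH-21. For 57 splicing factor genes with the start under a peak in all 4 libraries, the median summit lay at -36 and -37 bp from the start in BMH-21 libraries, against 128 and 125 bp in mock libraries. It lay further upstream in BMH-21, with the groups apart, at 37 of 57 genes (64.9%), against 56.7% of 8871 genes tested in the same way, and further downstream at 7 (12.3%), against 15.6%. All genes differed in the same direction, with median summits at -6 and -5 bp in BMH-21 libraries and 127 and 127 bp in mock libraries. The summit lay downstream of the start at 25 and 24 of the 57 genes in BMH-21 libraries (43.9 and 42.1%). In mock libraries it did so at 42 and 38 (73.7 and 66.7%). Over the 8871 genes the shares were 47.6 and 47.6% in BMH-21 libraries and 76.1 and 75.9% in mock libraries, a difference in the same direction.

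The downstream edge of these peaks was at 591 and 582 bp in BMH-21 libraries, against 655 and 664 bp in mock libraries, and it lay further upstream in BMH-21 at 30 of 57 genes, against 52.1% of all, and further downstream at 6, against 16.6%. The upstream edge, at -446 and -454 bp in BMH-21 libraries and -436 and -469 bp in mock libraries, overlapped between groups. Single genes differ in this. Snrpa had its summit at 73 and 66 bp in BMH-21 libraries against 288 and 287 bp in mock libraries. Hnrnpc had it at -261 and -261 bp in BMH-21 libraries against 189 and 189 bp in mock libraries. At Prpf6 it stayed in place, at 9 and 11 bp against 10 and 11 bp.

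**Figure D4:**
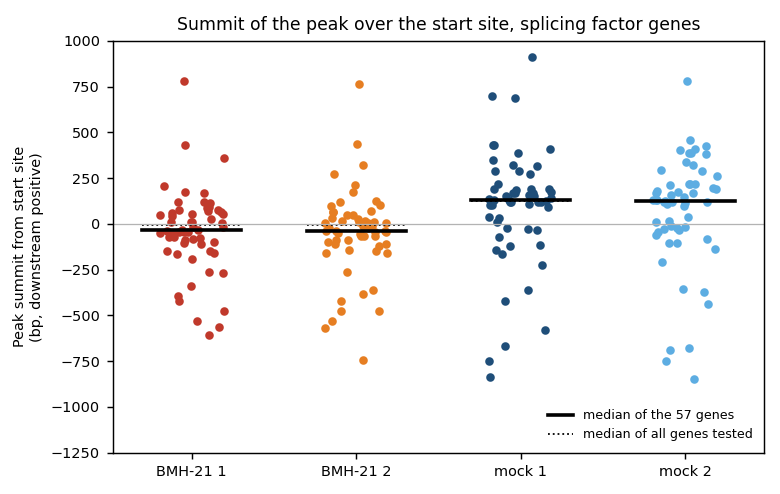
Position of the peak summit from the start site in bp for the 57 splicing factor genes in each library, with a solid bar at their median and a dotted bar at the median of 8871 genes. The medians stand at -36 and -37 bp in the BMH-21 libraries and at 128 and 125 bp in the mock libraries.

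Peaks inside the genes, more than 1 kb from both ends, were fewer after BMH-21. Member genes held 20 and 25 such peaks in BMH-21 libraries, against 45 and 52 in mock libraries, while gene-end peaks numbered 75 and 84 against 83 and 84. In all, 95 and 109 peaks lay at or in the 68 genes in BMH-21 libraries, against 128 and 136 in mock libraries, a difference of -30 in the means. With all lists cut to the 51234 peaks of highest fold the difference was 2, so its direction depends on the length of the lists. For all protein-coding genes the same totals were 29420 and 31437 against 67136 and 71417.

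Both mock lists held 40 inside regions. Of these, 25 (62.5%, interval 45.8 to 77.3%), in 12 genes, were missing from both BMH-21 lists, against 70.1% of 37336 such regions in all protein-coding genes. The share in splicing factor genes was near that of all genes. Hnrnpul1, a relative of Hnrnpu, held 2 and 0 inside peaks in BMH-21 libraries against 5 and 6 in mock libraries, with 4 regions in mock libraries alone, among them chr7:25725808-25726538. Prpf40b, a U1-associated gene, held 0 and 0 against 5 and 5, with 4 regions in mock libraries alone, of which chr15:99314867-99315922 was the widest. Sf3a1 held 0 and 0 inside peaks in BMH-21 libraries against 4 and 3 in mock libraries, and Prpf31, a tri-snRNP gene, 0 and 0 against 3 and 3. Regions that both BMH-21 lists held and both mock lists lacked lay in Hnrnpk (chr13:58394400-58394686) and Hnrnpll (chr17:80040750-80041136). A further 9 regions, in 7 genes, were present in all 4 libraries. Among them are the regions of Hnrnpf and Hnrnph1 that lie over their own promoter windows. A region of Hnrnpl, chr7:28810270-28811211, likewise covers its window at chr7:28810640-28810939. The inside counts and the 40 regions therefore include promoters away from the annotated gene ends.

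**Figure D5:**
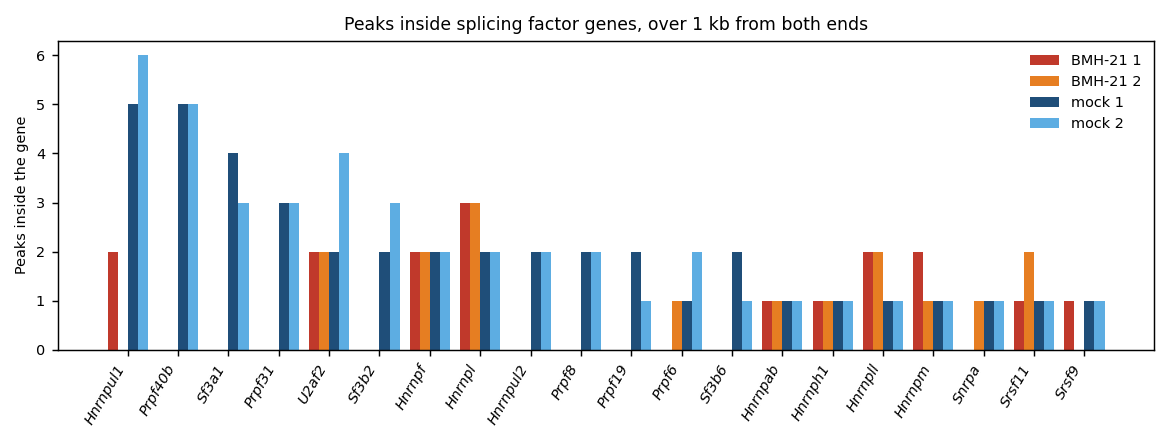
Number of peaks inside splicing factor genes, over 1 kb from both ends, in the 2 BMH-21 and 2 mock libraries, for genes (1 left out) with more than 2 such peaks summed over the 4 libraries. Prpf40b, Sf3a1 and Prpf31 have none in either BMH-21 library, while Hnrnpl has 3 and 3 in the BMH-21 libraries and 2 and 2 in the mock libraries. The Hnrnpl counts include peaks over its own promoter window.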

How the data were processed

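Peaks were analysed in 2 BMH-21 and 2 mock ATAC-seq libraries, in 1 list per library, so peaks were not called on pooled samples. Tools named in the submitters' processing notes, with no role or order, are MACS2 2.1.0, Bowtie2, fastp, deepTools and bedtools, and the builds named are mm39 and mm10. Peak calling settings, duplicate removal and any shift of cut sites are not given in the sources used here. The design text names an RNA kit and the labels' extract protocol a tagmentation kit. Peaks on chromosome 1 reach position 195371801, which mm39 does not contain, so positions are given as mm10 (GRCm38), counted from 1.

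The deposited fold was taken as the ratio of summit pileup to local background within 1 library, with 1 added to each. The strength of the peak as −log10 p and −log10 q was deposited beside it. The score column deposited by the authors equals the −log10 q times 10, truncated. None is normalised between libraries. Pileup and local background were computed back from these values by the Poisson relation, with an error of at most 0.0008 in −log10 p, and each list's lowest background served as the genome-wide one. Read depth is otherwise unknown. A peak counted at a gene end from 1 bp of overlap within 1 kb of either end.

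The members and lists were chosen with earlier results of these data known. Measures of pileup, local background, promoter windows and summit position were chosen after seeing the data. Named genes were the 5 largest rises and falls in width and rank, the 3 with most inside peaks in mock libraries, genes not in all 4 libraries, X genes and a set of well-known factors; Snrpc, Sf3a3, Srsf12, Hnrnpa0 and Prpf31 were named after their values were seen. The values of 1 gene enter the counts and medians but are not reported here by name. Intervals are exact Clopper-Pearson at 95% and cover counting error only. Analyses used Python 3.11.15, numpy 2.4.6, pandas 2.3.3 and scipy 1.17.1, and the scripts' procedures were tested on simulated data.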

Additional observations from a re-analysis of the deposited data

How the results depend on the processing

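With a 500 bp or 2.5 kb window, a −log10 q of at least 5, lists of equal length (51234 peaks) or summits widened by 100 bp each way, 60 to 66 genes had a gene-end peak in all 4 libraries, 38 to 46 had a lower fold percentile and 49 to 55 a higher background. Over all genes these settings gave 48.7 to 63.3% present in all 4 libraries. Among shared genes, 41.2 to 42.1% had a lower percentile and 43.2 to 49.1% a higher background. Of the values recomputed, 111 stayed within the limits set, 10 moved and 6 reversed. Leaving out each library in turn gave 46 to 47 lower and 10 to 15 higher percentiles, 55 to 56 higher backgrounds, 35 to 37 narrower peaks, and -37 to -23 for the difference in peaks. With fewer libraries the groups are more easily apart. Over all genes the shares were then 46.2 to 47.2% lower and 43.4 to 44.6% higher percentiles. They were 44.9 to 46.9% for higher backgrounds and 52.4 to 56.5% for narrower peaks. The mock-only count, 1 for Hnrnpf, was 0 at a −log10 q of at least 5, 0 with lists of equal length and 0 by promoter windows, and the BMH-21-only count was 3 with lists of equal length (Hnrnpa0, Prpf6 and U2af1l4). With equal lists the difference in peaks at or in the genes, -30, reversed to 2.

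The difference in median width, -15 bp, is not settled: it was 7 bp with a 500 bp window, 16.5 bp when 50% of the peak had to lie in the window and 15.25 bp without peaks over another gene's window, and leaving out a library gave -44.5 to 14.5 bp. Ranking by −log10 q gave 32 lower and 23 higher percentiles, against 41.1% and 38.8% of all genes, and ranking by relative pileup 34 higher and 20 lower, against 42.2% and 39.5%. Without peaks over another gene's window, 42 genes were left, with 29 lower percentiles, 36 higher backgrounds and 16 narrower peaks. The shares of all shared genes, with no such peaks left out, were 42.1%, 44.0% and 46.2%. The cause was not tested. With the replicate number as a block, the width difference was -15 bp and the difference in peaks -30; same-numbered libraries share only a number (correlation of deviations 0.0216 over 12675 genes, with 2 libraries a group), and the block changed no value. Precision is limited by 2 libraries a group and unknown read totals.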

Other observations

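Further splicing genes, outside the naming rule, differed between lists. A gene-end peak was present in all 4 libraries at 86 of 98 of them, against 57.9% of all protein-coding genes. These included 28 of 28 genes of complex B, the NTC and the catalytic steps, 9 of 9 spliceosomal helicase genes, 6 of 6 exon junction complex genes and 13 of 14 SMN and LSM genes. The fold percentile was lower in BMH-21, with the groups apart, at 21 of those 28 genes, 6 of 9 helicase genes, 4 of 6 exon junction genes, 9 of 13 SMN and LSM genes and 10 of 12 SR-related and kinase genes, against 42.1% of all genes. The list of other regulators, such as Rbfox, Celf and Mbnl genes, lay nearer the shares of all genes. A peak was present in all 4 libraries at 18 of 26. Of these 18, 7 had a lower and 8 a higher percentile, against 42.1% and 39.5% of all genes. The local background was higher at 7 of the 18, against 44% of all genes.

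A gene-end peak that both mock lists held and both BMH-21 lists lacked occurred at Srrm2 and Srpk2, among 15 SR-related and kinase genes, and at Rbfox1, Rbfox2 and Esrp1, among 26 other regulators. These are 5 of 94 further splicing genes with such a peak in both mock lists (5.32%, exact 95% interval 1.75 to 12.0%), against 11.5% of all genes. The 3 are of 23 other regulators with a peak in both mock lists, a share near that of all genes. Mbnl2 showed the reverse. No test of a difference between these lists was made.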
